A study of Homo sapiens with 13 samples.

Results

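The genes described here are 9 members of the citric acid cycle, taken from 59204 gene rows by matching Ensembl gene identifiers to a fixed list of symbols: CS, IDH3A, OGDH, SUCLG1, SDHA, SDHB, SDHC, FH and MDH2. All 9 had counts in all 13 libraries and passed the filters of every test. Transcript decay was measured by SLAM-seq, in which cells incorporate 4-thiouridine (4sU) into RNA, the thiol is alkylated, and reads that carry the resulting T-to-C changes are counted as labelled. K562 is an established chronic myeloid leukaemia line with erythroid features. Chase libraries followed a 12 h pulse with 30 µM 4sU, during which the medium was exchanged every 3 h, and a wash into medium with 3 mM uridine: 2 libraries each at 0, 1, 2, 4, 8 and 12 h of chase. The comparison library came from cells given no 4sU, in 1 library. Every library held 5% Drosophila S2 cells as a spike-in. Nothing in the labels says whether the libraries of a time point are separate cultures; the spread behind each p-value may therefore be technical.

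The citric acid cycle runs in the mitochondrial matrix, where it oxidises acetyl groups to carbon dioxide and passes the electrons to the respiratory chain as NADH and reduced flavin. All its enzymes are encoded in the nucleus and imported as proteins. In erythroid cells the cycle also supplies succinyl-CoA, from which haem synthesis starts. CS, citrate synthase, joins acetyl-CoA to oxaloacetate. IDH3A is the catalytic alpha subunit of the NAD-dependent isocitrate dehydrogenase, OGDH the E1 component of the 2-oxoglutarate dehydrogenase complex, and SUCLG1 the alpha subunit of succinyl-CoA ligase. SDHA (the flavoprotein), SDHB (the iron-sulfur subunit) and SDHC (a membrane anchor) belong to succinate dehydrogenase, which is also complex II of the respiratory chain. FH, fumarase, hydrates fumarate, and MDH2, mitochondrial malate dehydrogenase, regenerates oxaloacetate. In GENCODE 29 (GRCh38) CS lies on chromosome 12 from 56271699 to 56300392 (minus strand), IDH3A on chromosome 15 from 78131498 to 78171949 (plus strand) and OGDH on chromosome 7 from 44606572 to 44709066 (plus strand). SUCLG1 lies on chromosome 2 from 84423523 to 84460045 (minus strand), SDHA on chromosome 5 from 218241 to 256700 (plus strand) and SDHB on chromosome 1 from 17018722 to 17054170 (minus strand). SDHC lies on chromosome 1 from 161314257 to 161375340 (plus strand), FH on chromosome 1 from 241497603 to 241519761 (minus strand) and MDH2 on chromosome 7 from 76048051 to 76067508 (plus strand). The reads come from the 3′ ends of these protein-coding genes.

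Promoter sequences, 250 bases before to 50 bases after the start site, came from RefSeq on GRCh38.p14 and matched 7 of the 9 genes, without OGDH and SDHC. Those of 4 genes, chosen by their results, are shown. IDH3A had the largest change of total RNA. SDHA and SDHB encode partners in complex II whose total RNA moved in opposite directions. MDH2 had the slowest loss of labelled RNA relative to the library, though not relative to its own total. A link between these sequences and the results was not tested. They lie at chr15:78149112-78149411, plus strand (IDH3A); chr5:218070-218369, plus strand (SDHA); chr1:17053983-17054282, minus strand (SDHB); and chr7:76047856-76048155, plus strand (MDH2). Capitals mark matches, on either strand, to 4 fixed motifs. These were GCGC, any 2 bases and GCGC again for NRF1, AAGATGG for YY1, AAGGTCA for ERR and CCGGAAG for ETS factors. An E-box, CACGTG, was also searched.
IDH3A: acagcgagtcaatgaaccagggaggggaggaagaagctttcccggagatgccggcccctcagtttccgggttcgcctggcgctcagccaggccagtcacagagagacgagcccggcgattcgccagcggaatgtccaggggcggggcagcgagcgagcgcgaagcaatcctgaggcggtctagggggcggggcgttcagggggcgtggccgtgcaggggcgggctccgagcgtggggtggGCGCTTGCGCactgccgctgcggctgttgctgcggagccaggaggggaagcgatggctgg
SDHA: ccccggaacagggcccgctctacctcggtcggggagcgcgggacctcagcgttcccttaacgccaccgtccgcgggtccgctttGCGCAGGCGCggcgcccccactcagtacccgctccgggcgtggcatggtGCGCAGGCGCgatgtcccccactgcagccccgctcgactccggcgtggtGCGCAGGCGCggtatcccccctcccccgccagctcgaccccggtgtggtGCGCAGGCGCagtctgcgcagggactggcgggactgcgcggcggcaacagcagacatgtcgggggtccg
SDHB: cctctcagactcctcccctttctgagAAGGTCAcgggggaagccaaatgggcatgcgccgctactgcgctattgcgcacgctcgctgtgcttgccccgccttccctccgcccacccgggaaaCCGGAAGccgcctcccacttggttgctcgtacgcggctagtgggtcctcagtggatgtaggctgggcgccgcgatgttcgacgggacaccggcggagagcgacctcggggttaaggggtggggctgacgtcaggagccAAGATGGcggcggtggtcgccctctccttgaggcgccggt
MDH2: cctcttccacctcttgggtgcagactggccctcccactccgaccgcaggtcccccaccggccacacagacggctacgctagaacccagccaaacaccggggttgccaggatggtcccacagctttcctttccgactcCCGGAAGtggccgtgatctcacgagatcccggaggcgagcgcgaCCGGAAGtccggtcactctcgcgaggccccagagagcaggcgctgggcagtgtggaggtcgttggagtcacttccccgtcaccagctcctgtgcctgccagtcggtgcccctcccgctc
The NRF1-type motif was present in IDH3A at position −10 from the start site, and in SDHA at positions −166, −117, −68 and −19, evenly spaced by 49 bases, and in 8.78% of the 27305 promoters of the same length. SDHB held a match each to the YY1-type motif (6.06% of all promoters), the ERR-type motif (3.97%) and the ETS-type motif (10.7%). MDH2 held 2 ETS-type matches. No matches overlapped. CS, SUCLG1 and FH had no match to any of the 5 motifs, and no promoter of the 7 held the E-box, which 7.43% of all promoters hold. A match is a description of the letters only.

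Total counts ranged from 9004529 to 14501366 in the chase libraries and were 17425584 in the library without 4sU. The labelled share of all counts fell with chase time, at 36.01%, 34.7%, 32.9%, 26.3%, 16.8% and 10.7% on average at 0, 1, 2, 4, 8 and 12 h. All 8 K562 and erythroid markers were expressed, with a summed level of 4371 to 13069.7 CPM (counts scaled to a common effective library size). The 6 lymphocyte markers summed to 17.7 to 39.03 CPM, and 4 of them stayed under 1 CPM in every library. The 6 monocyte and granulocyte markers summed to 5.13 to 18.6 CPM, and 2 of them stayed under 1 CPM in every library. On the main axis of variation of the spike-in counts (66.2% of variance), some libraries stood apart from the rest. They were those at 8 and 12 h, replicate 2 at 4 h and the library without 4sU, so that the axis largely ran with chase time. As a factor, the axis was coded as these libraries against the rest. Only 4 h held a library on each side, so in the tests of total RNA the effect of this factor rests on the 2 libraries at 4 h. Without 4sU, none of the 9 genes had a labelled read, which allows labelled shares of up to 0.0298% for MDH2, the deepest, and up to 0.530% for OGDH, the shallowest. These limits cover counting error only.

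Labelled RNA of most of these genes was lost more slowly than that of a typical gene. Of the 9 genes, 8 had a slope of labelled RNA on chase time that lay above the median slope of all 9652 genes tested (edgeR quasi-likelihood test, Benjamini-Hochberg adjusted), against a background of 36.3% of genes called slower and 36% called faster. None was faster, by edgeR or DESeq2 or at an unadjusted p under 0.05 (0 by each), and OGDH differed from the median in neither direction. The median apparent half-life was 8.55 h over the 9 genes and 4.30 h over all genes tested, of which the lower and upper quartiles were 3.03 and 6.58 h. Apparent half-life is the time in which labelled RNA falls to 50% of its level, measured relative to the total library. A quadratic term in time was set against the median quadratic term of all genes, so that it tests a curve unlike that of a typical gene and not a straight course. It was called for 0 of the 9 genes by edgeR and 0 by DESeq2 (1, SDHB, at an unadjusted p under 0.05), against 3.68% of all genes with a higher and 3.54% with a lower term. The median half-life was longer early in the chase. It was 16.6 h over 0 to 4 h and 7.44 h over 2 to 12 h for the 9 genes, and 6.26 h and 3.75 h for all genes. The early values are poorly bounded: IDH3A, OGDH, SUCLG1, SDHA and SDHC had no finite upper limit over 0 to 4 h, and that of CS was 162 h. SDHB and FH had upper limits of 17.6 and 16.3 h, and FH was not longer early (7.26 h, against 7.32 h over 2 to 12 h). MDH2 had 96.5 h over 0 to 4 h, likewise with no finite upper limit, and 12.3 h over 2 to 12 h. Over the first 4 h alone, IDH3A, SDHB and FH were not called (adjusted p = 0.145, 0.537 and 0.707). The other 5 slower genes were, against 17.6% of all genes slower and 20.2% faster.

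MDH2 and OGDH marked the ends of this range. MDH2 had 77.1 and 74.8 labelled CPM (0 h), 73.8 and 75.5 (1 h), 79.3 and 73.2 (2 h), 72.4 and 74.5 (4 h), 58.8 and 55.9 (8 h) and 43.9 and 43.2 (12 h). Its levels up to 4 h lay close together, and every library at 8 and 12 h lay below them. Its half-life was 15.00 h (95% interval 12.2 to 19.6 h), at the 94.9th percentile of all genes, and its slope lay 0.17 ± 0.01 log2 units per hour above the median (SE; adjusted p = 4.92e-15). OGDH, by contrast, had 8.61 and 9.99 labelled CPM (0 h), 10.96 and 9.08 (1 h), 7.55 and 6.81 (2 h), 7.32 and 7.29 (4 h), 2.92 and 3.86 (8 h) and 0.835 and 1.49 (12 h). No library at 8 or 12 h reached the lowest level at 0 to 4 h. Only 10 and 20 labelled reads remained at 12 h, so that the late values of OGDH are the least precise. Its half-life was 4.53 h (95% interval 3.58 to 6.17 h), close to the median of all genes, with a slope 0.01 ± 0.02 from the median (adjusted p = 0.788).

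CS, IDH3A and SUCLG1 had half-lives near each other, whereas OGDH, which acts between IDH3A and SUCLG1 in the cycle, had a shorter one (4.53 h). CS had 89.6 and 88.2 labelled CPM (0 h), 91.3 and 87.5 (1 h), 93.97 and 84.2 (2 h), 79.2 and 75.2 (4 h), 52.1 and 56.2 (8 h) and 38.7 and 30.5 (12 h), with a half-life of 8.76 h (95% interval 7.29 to 10.95 h). IDH3A had 15.3 and 16.05 labelled CPM at 12 h, against 41.99 and 35.5 at 0 h, with a half-life of 8.47 h (95% interval 6.76 to 11.3 h). SUCLG1 had 11.4 and 10.3 labelled CPM at 12 h, against 26.1 and 31.2 at 0 h, with a half-life of 8.55 h (95% interval 6.99 to 11.001 h). In all 3 the libraries at 12 h lay below every library at 0 to 8 h. Their slopes lay 0.12, 0.12 and 0.12 log2 units per hour above the median (adjusted p = 4.78e-11, 1.96e-09 and 4.62e-09).

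Of the complex II subunits among the 9 genes, SDHC had the longest half-life and fell more slowly than SDHB, while no difference of SDHA from either passed the test of pairs. SDHC had 21.5 and 14.7 labelled CPM at 12 h, against 39.9 and 34.3 at 0 h, and a half-life of 11.2 h (95% interval 8.83 to 15.4 h). SDHA had 11.1 and 12.1 labelled CPM at 12 h, against 28.5 and 26.9 at 0 h, and a half-life of 8.91 h (95% interval 7.46 to 11.1 h). SDHB had 20.5 and 16.2 labelled CPM at 12 h, against 56.5 and 56.8 at 0 h, and a half-life of 7.43 h (95% interval 6.39 to 8.86 h). The intervals of SDHA overlap those of both partners. FH, with 6.93 and 6.46 labelled CPM at 12 h, against 20.1 and 21.1 at 0 h, had a half-life of 7.57 h (95% interval 6.46 to 9.14 h). All 4 genes were slower than the median, with slopes from 0.11 (SDHB) to 0.15 (SDHC) log2 units per hour above it and adjusted p from 3.08e-11 (SDHC) to 9.26e-08 (FH).

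**Figure D1:**
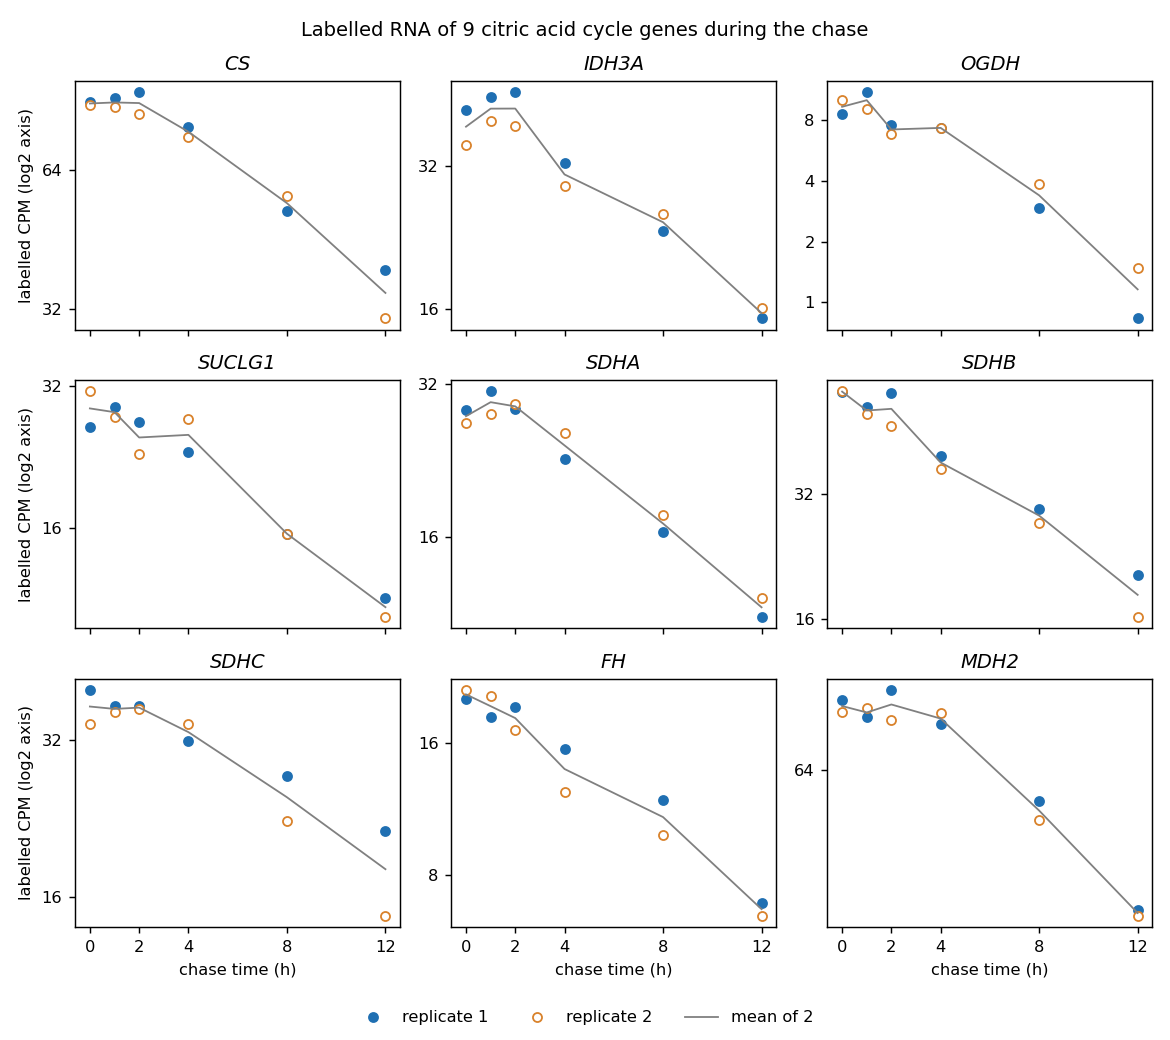
Labelled RNA (CPM, log2 axis, scaled separately for each gene) against chase time (h) in the 12 chase libraries; filled and open points are replicates 1 and 2 and lines join the means of 2. Labelled MDH2 stayed between 72.4 and 79.3 CPM up to 4 h, while OGDH was at 0.835 and 1.49 CPM by 12 h.

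**Figure D2:**
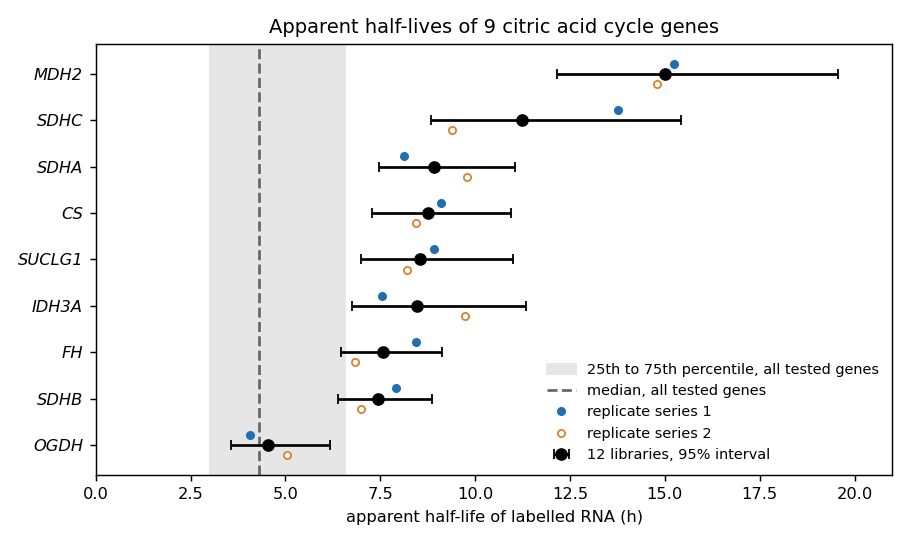
Apparent half-life of labelled RNA (h) of each gene, longest at the top; black points and bars are the fit to 12 libraries with its 95% interval, coloured points the fits to the 6 libraries of each replicate number. The dashed line is the median of all tested genes (4.30 h) and the grey band their 25th to 75th percentile (3.03 to 6.58 h); OGDH alone lies inside the band.

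Slopes were compared between the genes in all 36 pairs, within libraries so that library size cancels, with a permutation test (100000 resamples, two-sided) and p-values adjusted over the pairs. They differed in 17 pairs. OGDH fell faster than each of the other 8, with slope differences from −0.12 ± 0.03 log2 units per hour against SDHB (permutation test, adjusted p = 0.00555) to −0.18 ± 0.02 against MDH2 (permutation test, adjusted p = 2.4e-04). MDH2 fell more slowly than 6 of the remaining 7 genes. Against SDHC, its neighbour in the order, the difference was 0.02 ± 0.01 and did not pass (permutation test, adjusted p = 0.0536). It passed without replicate 1 at 12 h or replicate 2 at 0 h (permutation test, adjusted p = 0.00406 and 0.0476). The other 3 pairs involved SDHC, which fell more slowly than SDHB by 0.04 ± 0.01 (permutation test, adjusted p = 0.00189), FH by 0.04 ± 0.01 (permutation test, adjusted p = 0.0168) and CS by 0.03 ± 0.01 (permutation test, adjusted p = 0.0236). The calls against FH and CS were lost without replicate 1 at 12 h (permutation test, adjusted p = 0.108 and 0.116). The same library or its partner at 12 h also turned other pairs into calls, among them SDHA against SDHB (permutation test, adjusted p = 0.0386 without replicate 1) and SDHA against SDHC (0.0194 without replicate 2). The 6 genes CS, IDH3A, SUCLG1, SDHA, SDHB and FH differed in 0 of their 15 pairs when all libraries were used, with differences of at most 0.02 ± 0.01 (SDHA against SDHB; permutation test, adjusted p = 0.161). By labelled share, that is against each gene's own total, 32 of the 36 pairs differed, among them 12 of these 15. On that scale CS, SUCLG1 and FH did not differ from each other. SDHC did not differ from MDH2 either (0.004 log2 units per hour; permutation test, adjusted p = 0.747). The share of SDHA fell faster than that of SDHB, by −0.08 log2 units per hour (permutation test, adjusted p = 7.20e-04).

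The share of each gene's counts that was labelled at the end of the pulse differed widely among the 9 genes. At 0 h it was 71.1 and 66.4% for IDH3A, 52.2 and 54.6% for CS, 51.2 and 54.5% for OGDH and 47.6 and 47.2% for SDHB. It was 41.7 and 39.4% for SDHA, 27.9 and 32.00% for SUCLG1, 26.9 and 27.8% for FH and 26.5 and 23.6% for SDHC. MDH2 was lowest, at 11.5 and 11.7%, the 2.95th percentile of all genes, whose median was 57.9%. Only IDH3A lay above that median. The libraries of CS and OGDH overlapped at 0 h, while those of MDH2 lay below every library of the other genes. Detection of label depends on the uridines that a 3′-end read covers: the last 200 bases of the annotated transcript held 35% U in IDH3A, 37.5% in SDHC, 28.5% in MDH2 and 22% in OGDH, with a median of 32% over the genes that could be matched. The part of this composition in the shares was not tested.

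SDHC and MDH2 had a higher labelled share after 4 h of chase than at its start. SDHC had a share of 26.5 and 23.6% (0 h), 26.02 and 25.8 (1 h), 29.6 and 28.97 (2 h), 32.2 and 35.04 (4 h), 28.5 and 28.98 (8 h) and 21.2 and 15.3 (12 h). Both libraries at 4 h were thus above all others, and the share was lowest at 12 h. MDH2 had a share of 11.5 and 11.7% (0 h), 10.8 and 11.5 (1 h), 12.3 and 11.7 (2 h), 13.3 and 13.4 (4 h), 11.3 and 10.6 (8 h) and 8.04 and 8.10 (12 h), likewise highest at 4 h and lowest at 12 h. At 4 h against 0 h the share was 1.34-fold for SDHC (log2 difference 0.42 ± 0.09, SE; edgeR quasi-likelihood test on labelled counts with the gene's own total as offset, adjusted p = 1.64e-04) and 1.15-fold for MDH2 (0.20 ± 0.05, adjusted p = 0.00147). This comparison was added after the shares had been seen. Of all 9652 genes, 2.72% had a higher share at 4 h and 75.6% a lower one; of the 9 cycle genes, 2 had a higher share and 5 (CS, IDH3A, OGDH, SDHB and FH) a lower one, with a median log2 difference over all genes of −0.81. The call of SDHB was lost without any of 5 libraries, those at 0 and 1 h and replicate 1 at 4 h, and that of FH without replicate 2 at 0 h or at 4 h, with adjusted p of up to 0.610 and 0.111. SUCLG1 gained a lower call without replicate 1 at 0 h (adjusted p = 0.0355).

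For SDHC and MDH2, unlabelled and labelled counts were also set side by side at these times, with no separate test. Unlabelled SDHC was at 65.5 CPM ± 2.49 at 4 h and 111 CPM ± 0.391 at 0 h (SD, n = 2 each), whereas labelled SDHC was at 33.1 CPM ± 1.73 at 4 h and 37.1 CPM ± 3.98 at 0 h. Unlabelled MDH2 was at 477 CPM ± 7.74 at 4 h and 579.6 CPM ± 18.5 at 0 h, whereas labelled MDH2 was at 73.4 CPM ± 1.504 at 4 h and 75.96 CPM ± 1.67 at 0 h. For both genes the unlabelled levels of the libraries did not overlap between these times. The share of all genes with such a course was not computed, and these 2 were chosen by their labelled share at the same times. Labelled levels overlapped for SDHC and stood close for MDH2, at 72.4 and 74.5 CPM at 4 h, against 77.1 and 74.8 CPM at 0 h. Unlabelled IDH3A was higher at 4 h, at 39.9 and 47.5 CPM, against 17.1 and 17.98 CPM at 0 h. By 12 h it was at 135 and 139.7 CPM. Unlabelled OGDH was at 20.3 and 16.5 CPM at 4 h and 36.8 and 35.9 CPM at 12 h, against 8.19 and 8.32 CPM at 0 h. The share of all genes with such a rise is not given here. At 12 h unlabelled SDHC was at 79.8 and 81.3 CPM and unlabelled MDH2 at 502 and 491 CPM, above their levels at 4 h.

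**Figure D3:**
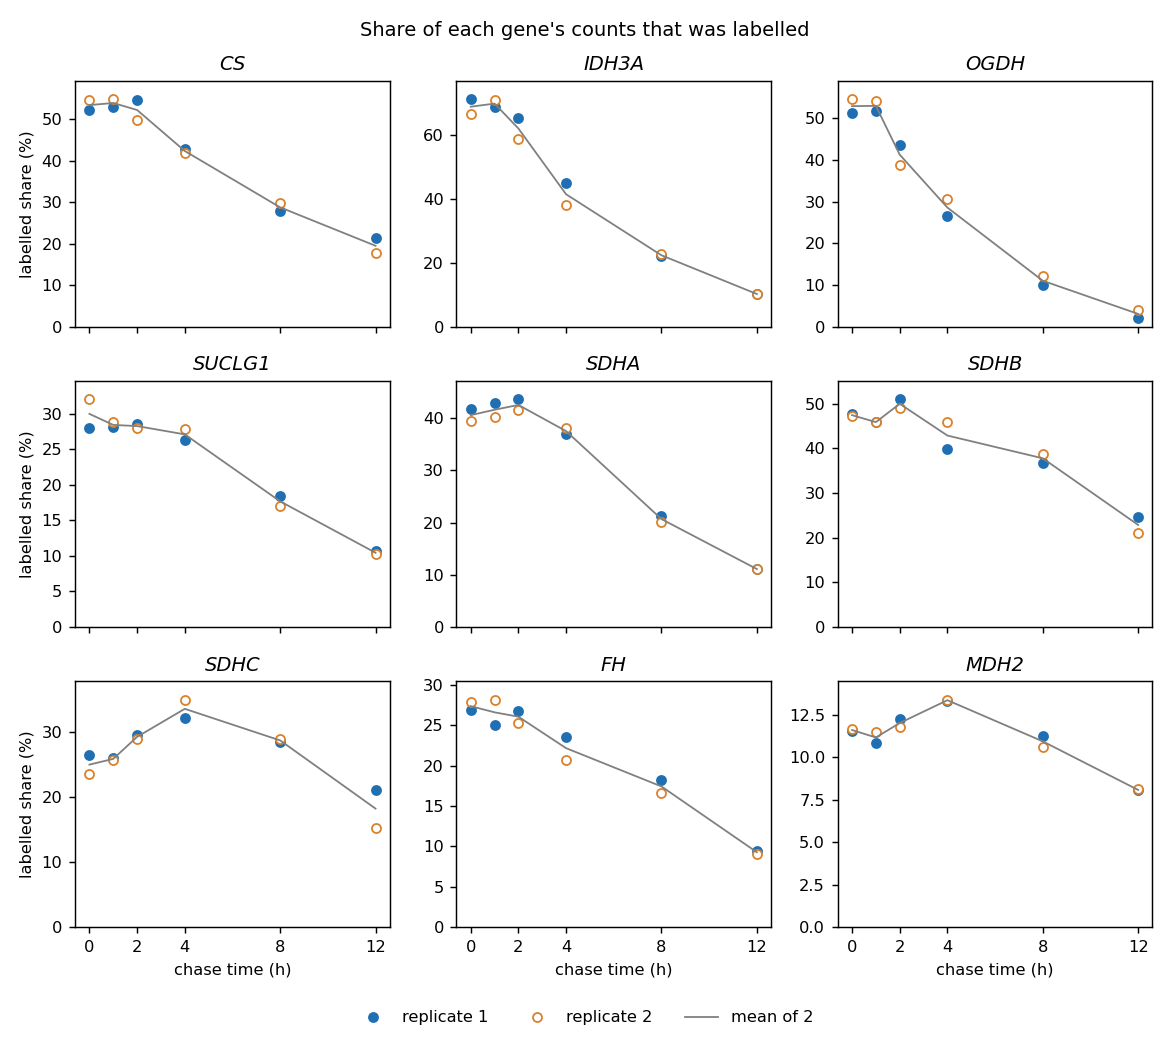
Labelled share of each gene's counts (%, axes from 0) against chase time (h) in the 12 chase libraries; points are replicates and lines join the means of 2. The shares of SDHC and MDH2 were highest at 4 h (32.2 and 35.0%, and 13.3 and 13.4%), whereas those of IDH3A and OGDH fell to 10.2 and 10.3%, and 2.22 and 3.98%, by 12 h.

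Because totals moved during the chase, half-lives depend on whether label is set against the library or against the gene's own total. Against its own total, SDHC had a half-life of 35.4 h, with no finite upper limit, MDH2 of 27.9 h and SDHB of 12.9 h. IDH3A then had one of 4.23 h, SDHA of 6.32 h and OGDH of 3.10 h. Both fits use the same labelled counts, so by construction a falling total lengthens this value and a rising total shortens it. CS (7.85 h), SUCLG1 (8.39 h) and FH (8.42 h), whose totals at 12 h did not differ from 0 h beyond their spread, lay within 1 h of their first values. The same 8 genes were slower than the median on this scale, and OGDH was faster, with a slope −0.06 ± 0.02 log2 units per hour from the median (adjusted p = 0.00754). The median half-life of all genes was 3.79 h on this scale.

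Total RNA of the cycle genes was called in both directions at 12 h against 0 h of chase, at shares near those of all genes. IDH3A, OGDH and SDHA were higher, SDHB, SDHC and MDH2 were lower, and CS, SUCLG1 and FH did not pass the test, against a background of 27% of 16255 genes higher and 29.1% lower. With spike-in totals as library sizes, SDHB and SDHC no longer passed (−0.22 and −0.23) and MDH2 turned to 0.08. The median log2 fold change was 0.03 over the 9 genes and −0.06 over all genes. Fewer cells and less RNA per cell cannot be told apart in these bulk libraries, and all values are relative to the library.

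IDH3A had 261 total CPM without 4sU, then 59.1 and 53.5 CPM (0 h), 65.2 and 56.3 (1 h), 70.2 and 66.2 (2 h), 72.3 and 76.5 (4 h), 106 and 112 (8 h) and 150.00 and 156 (12 h). The lowest of the chase libraries was at 0 h and the highest at 12 h, and no chase library reached the level without 4sU. At 12 h it was 2.61-fold higher than at 0 h (log2 1.39 ± 0.08, SE; edgeR quasi-likelihood test, adjusted p = 1.31e-13). OGDH had 34.95 total CPM without 4sU, then 16.8 and 18.3 CPM (0 h), 21.2 and 16.7 (1 h), 17.3 and 17.5 (2 h), 27.6 and 23.8 (4 h), 29.3 and 31.8 (8 h) and 37.6 and 37.4 (12 h). Both libraries at 12 h exceeded the library without 4sU, and the first 3 time points overlapped. OGDH was 2.06-fold higher at 12 h than at 0 h (log2 1.04 ± 0.12; adjusted p = 5.47e-08). SDHA had 127 total CPM without 4sU, then 68.3 and 68.1 CPM (0 h), 72.2 and 69.5 (1 h), 65.6 and 70.7 (2 h), 61.8 and 67.3 (4 h), 76.6 and 88.2 (8 h) and 100.3 and 109 (12 h). Its libraries up to 4 h lay between 61.8 and 72.2 CPM, those at 4 h below those at 0 and 1 h, and it was 1.48-fold higher at 12 h than at 0 h (log2 0.56 ± 0.09; adjusted p = 3.47e-06).

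SDHB had 138 total CPM without 4sU, then 119 and 120.3 CPM (0 h), 114 and 109 (1 h), 110.4 and 95.4 (2 h), 99.3 and 80.4 (4 h), 80.5 and 70.4 (8 h) and 82.97 and 76.9 (12 h). SDHC had 176 total CPM without 4sU, then 151 and 146 CPM (0 h), 143 and 140.5 (1 h), 125 and 127 (2 h), 99.1 and 98.1 (4 h), 95.7 and 77.3 (8 h) and 101 and 95.99 (12 h). In both, every library from 4 h on lay below both libraries at 0 h, and 8 h held the lowest library. At 12 h against 0 h, SDHB was 1.55-fold lower (log2 −0.64 ± 0.09; adjusted p = 8.32e-07) and SDHC 1.56-fold lower (log2 −0.64 ± 0.08; adjusted p = 7.59e-08). SDHA and its partners SDHB and SDHC, whose proteins assemble in 1 complex, thus lay on opposite sides of 0 at this time. MDH2, the most abundant of the 9 by counts, had 621 total CPM without 4sU, then 669.8 and 641 CPM (0 h), 683 and 657 (1 h), 647 and 624 (2 h), 544 and 557 (4 h), 523 and 528 (8 h) and 546 and 534 (12 h). It was 1.26-fold lower at 12 h than at 0 h (log2 −0.34 ± 0.06; adjusted p = 3.02e-05), with all libraries from 4 h on below those at 0 to 2 h.

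The remaining 3 genes moved less. CS had 182 and 172 total CPM at 12 h, against 172 and 162 at 0 h, a log2 difference of 0.03 ± 0.07 (adjusted p = 0.713). SUCLG1 had 107 and 101 total CPM at 12 h, against 93.5 and 97.4 at 0 h, a difference of 0.06 ± 0.08 (adjusted p = 0.544). FH had 73.04 and 71.2 total CPM at 12 h, against 74.8 and 75.8 at 0 h, a difference of −0.12 ± 0.08 (adjusted p = 0.216). FH was lower in between, at 64.9 and 59.3 CPM at 8 h (−0.31 against 0 h, adjusted p = 0.00200). With the spike-in axis as a factor this call was lost (−0.22, adjusted p = 0.256). A test of any change over the 6 times called 7 of the 9 genes, without CS (adjusted p = 0.250) and SUCLG1 (adjusted p = 0.0545), against 62.3% of all genes. SUCLG1 passed without replicate 2 at 1 h, replicate 1 at 2 h, either library at 4 h or replicate 2 at 8 h, with adjusted p of 0.00999 to 0.0494. With spike-in totals CS and SUCLG1 were called (adjusted p = 6.67e-06 and 1.40e-04) and MDH2 was not (0.225).

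The timing of the calls differed between genes. At 1 h against 0 h, edgeR called 0 cycle genes (0 also at an unadjusted p under 0.05), when 0.32% of all genes were higher and 0.0369% lower. At 2 h SDHC was called and no other cycle gene, at −0.26 ± 0.08 (adjusted p = 0.0339), with 5.25% of all genes higher and 1.73% lower. At 4 h IDH3A and OGDH were higher and SDHB, SDHC, FH and MDH2 lower, with backgrounds of 16.7% and 15.5%. SDHA joined the higher genes at 8 h, at 0.24 ± 0.09 (adjusted p = 0.0272), with backgrounds of 23.7% and 25.4%. With the spike-in axis as a factor, estimated from the libraries at 4 h alone, SDHA lost that call (0.07, adjusted p = 0.749). FH likewise lost its lower call at 8 h (−0.22, adjusted p = 0.256). SDHB was then called at 2 h (−0.25, adjusted p = 0.0325), though its estimate was −0.25 also without the factor (adjusted p = 0.0939).

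**Figure D4:**
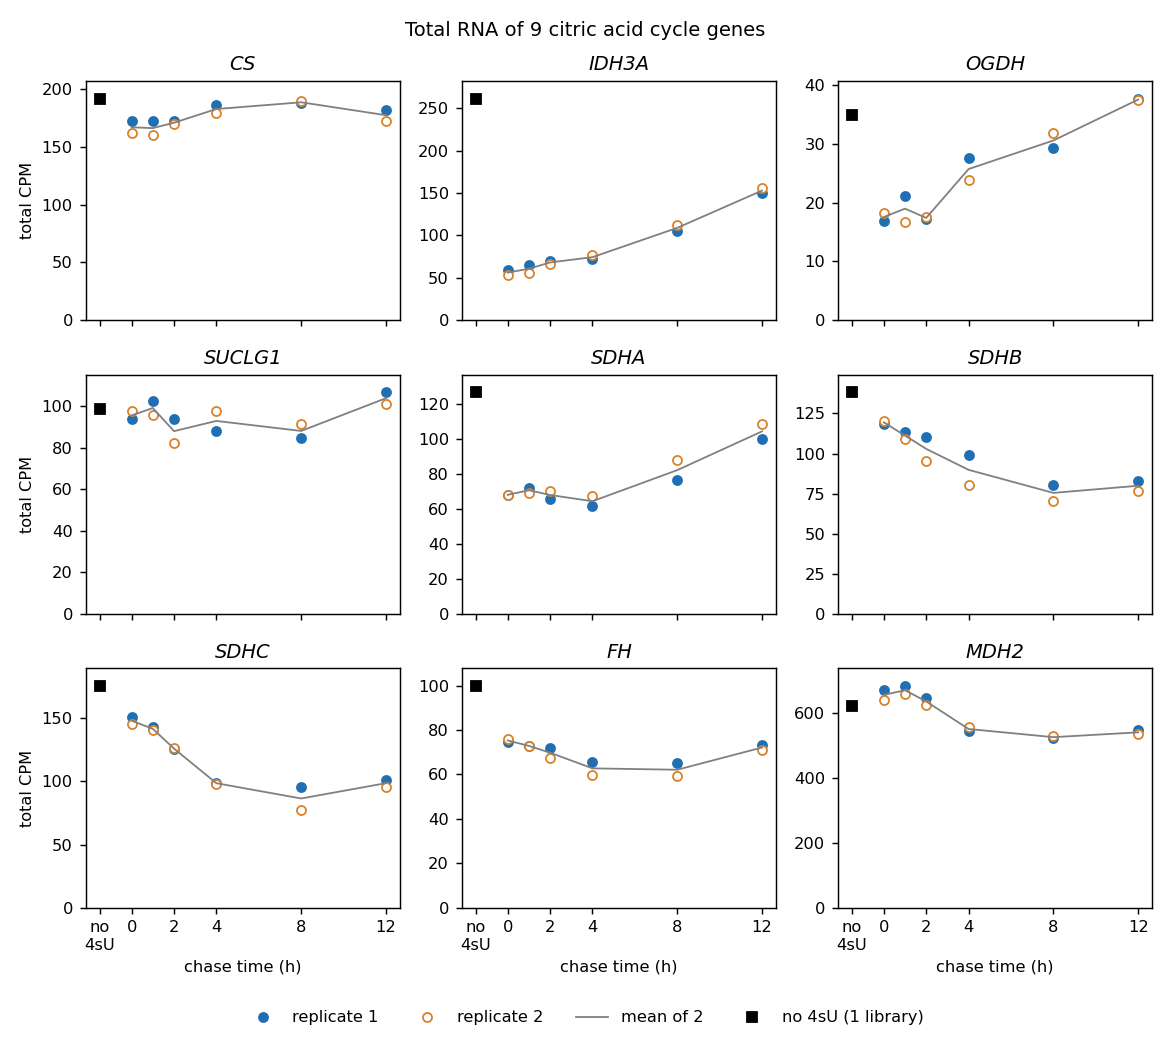
Total RNA (CPM, axes from 0) of each gene without 4sU (black square, 1 library) and against chase time (h); points are replicates and lines join the means of 2. IDH3A stands at 261 CPM without 4sU and at 150.00 and 156 CPM at 12 h, while SDHB and SDHC decline up to 8 h.

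The libraries at 0 h, harvested after 12 h in 4sU, were set against the library without 4sU, which has no replicate and is assumed to vary like the others. IDH3A, OGDH, SDHA, FH and SDHC were lower at 0 h and none was higher (0 also by DESeq2 and at an unadjusted p under 0.05), against backgrounds of 31.8% lower and 33.5% higher. With spike-in totals FH and SDHC turned to 0.10 and 0.26, neither of which passed (adjusted p = 0.554 and 0.0791). IDH3A was 4.57-fold lower (59.1 and 53.5 CPM at 0 h, against 261 CPM without 4sU; log2 −2.19 ± 0.09; edgeR quasi-likelihood test, adjusted p = 5.17e-17). OGDH was 1.96-fold lower (log2 −0.97 ± 0.14; adjusted p = 1.35e-06) and SDHA 1.83-fold lower (log2 −0.87 ± 0.10; adjusted p = 2.04e-08). These are also the 3 genes that were higher at 12 h than at 0 h; the comparisons share the 0 h libraries. FH had 74.8 and 75.8 CPM at 0 h, against 99.7 CPM without 4sU (log2 −0.38 ± 0.09; adjusted p = 7.53e-04). SDHC, at −0.22 ± 0.09 (adjusted p = 0.0345), lost its call without either library at 0 h, with adjusted p of 0.0602 and 0.0962. CS (−0.18 ± 0.08, adjusted p = 0.0534), SDHB (−0.19 ± 0.10, 0.116), SUCLG1 (−0.02 ± 0.10, 0.860) and MDH2 (0.10 ± 0.07, 0.235) did not pass. CS passed with DESeq2's size factors (−0.20, 0.0292) and without replicate 1 at 0 h, either library at 1 h, replicate 1 at 2 h or replicate 2 at 4 h (adjusted p of 0.0398 to 0.0497).

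**Figure D5:**
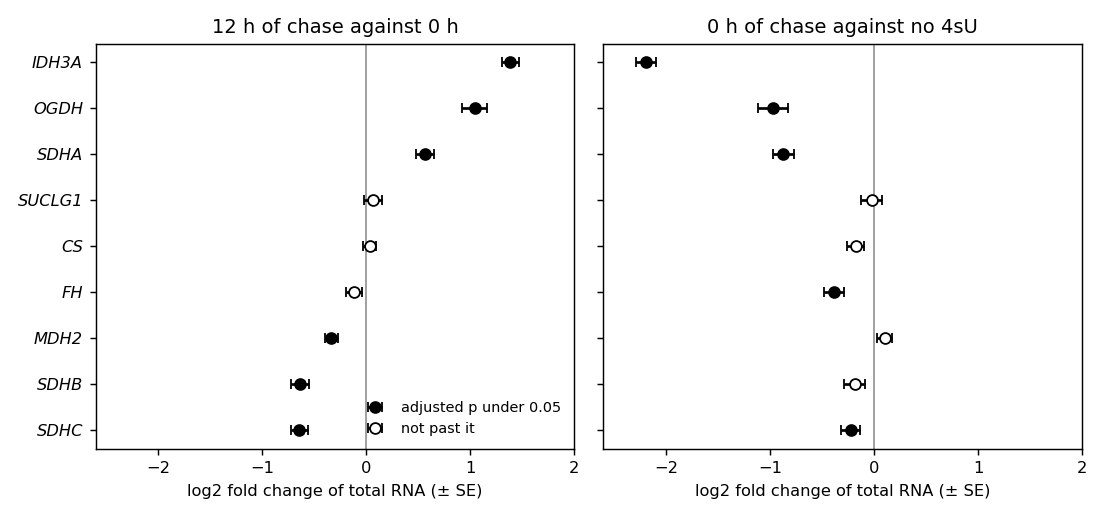
Log2 fold change of total RNA with its standard error, at 12 h against 0 h of chase (left) and at 0 h against no 4sU (right); filled points have an adjusted p under 0.05. IDH3A, OGDH and SDHA lie right of 0 on the left (1.39, 1.04 and 0.56) and left of 0 on the right (−2.19, −0.97 and −0.87).

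Directions of total RNA depend on the scaling. With spike-in totals in place of library size, the median of all genes moved to 0.36 at 12 h against 0 h and to 0.54 at 0 h against no 4sU. At 12 h, CS, SUCLG1 and FH were then also higher (0.45, 0.48 and 0.30). At 0 h against no 4sU, IDH3A, OGDH and SDHA stayed lower (−1.71, −0.49 and −0.39), and CS, SUCLG1, SDHB and MDH2 were higher (0.30, 0.46, 0.29 and 0.58). The share of all genes called higher in these fits is not given here. Less the median of all genes, CS, SUCLG1, SDHB and MDH2 lay at −0.24, −0.08, −0.25 and 0.04. At 12 h, CS, SUCLG1 and FH lay at 0.09, 0.12 and −0.06 on that scale. Relative to the median of all genes, IDH3A lay at 1.45 at 12 h with the spike-in and at 1.44 without it, and SDHC at −0.58 and −0.59. With the spike-in axis as a factor, the 6 genes were again called at 12 h, with SDHA at 0.40 and SDHB at −0.37 (adjusted p = 0.0234 and 0.0282). At 0 h against no 4sU, SDHC lost its call (−0.20, 0.234) and SDHB gained one (−0.45, 0.00758). These fits cannot show whether calls hold apart from the axis, since its effect comes from 1 pair of libraries, at 4 h.

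Some counts may hold reads of near-identical copies or of overlapping genes, since the counting and strand settings were not given in the sources used here. The counts of the pseudogenes SDHAP4 and SDHAP1, summed over libraries, came to 27.5% and 8.47% of those of SDHA, and the counts of FHP1 to 8.40% of those of FH, so SDHA and FH are uncertain. Other pseudogenes of the 9 genes reached at most 0.306%. CIB2, on the opposite strand across part of IDH3A, had 203 to 514 counts per library, and CNPY2-AS1, antisense to CS, 16 to 39.

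Among 8 other subunits of the cycle's enzymes, 4 were slower than the median and 4 did not pass, with a median half-life of 5.93 h, against 36.3% of all genes slower and 36% faster. Against their own totals all 8 were slower (39.8% of all genes), and with the spike-in axis as a factor, or over 0 to 4 h, 2 of 8 were (24.9% and 17.6% of all genes). The longest, 14.8 h, belonged to IDH3B, the beta subunit that binds IDH3A, and the shortest, 4.05 h, to SDHD, the other membrane anchor of complex II. The total RNA of SDHD was −1.67 ± 0.13 at 12 h against 0 h and 1.92 ± 0.17 at 0 h against no 4sU (log2, SE; adjusted p = 3.23e-11 and 1.39e-10). SDHA thus lay on the other side of 0 from SDHD in both comparisons. Of 4 assembly factors of complex II, 3 were tested and were faster than the median: SDHAF1 (1.76 h), SDHAF2 (2.37 h) and SDHAF3 (3.71 h). Set against their own totals, SDHD and SDHAF3 were slower than the median, by 0.17 and 0.13 log2 units per hour (adjusted p = 9.74e-13 and 1.88e-07). With the spike-in axis as a factor, SDHAF1 and SDHAF3 were not called (adjusted p = 0.126 and 0.155), nor was SDHAF3 over 0 to 4 h (0.693).

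Genes of pyruvate entry and its control had 8 of 13 tested, with a median half-life of 6.34 h. Of these, 6 were slower and 1 faster, against 36.3% and 36% of all genes. Over 0 to 4 h, 3 of the 8 were slower (17.6% of all genes). With the spike-in axis as a factor 5 were slower (24.9% of all genes). Against their own totals 6 were slower and 2 faster (39.8% and 38.3% of all genes). PDHA1, the catalytic subunit of pyruvate dehydrogenase, had 16.9 h and PDP2, a phosphatase that activates it, 1.87 h. Of 7 cytosolic and NADP-linked relatives, 6 were slower and 1 faster, against the same 36.3% and 36%, with a median of 7.25 h. Over 0 to 4 h, MDH1 alone of the 6 that could be fitted was slower (17.6% of all genes). With the spike-in axis as a factor 5 were slower (24.9% of all genes), and against their own totals 6 (39.8%). ME2 was not called against its own total or with the spike-in axis as a factor (adjusted p = 0.128 and 0.611). MDH1, the cytosolic counterpart of MDH2, had 14.4 h, with labelled RNA again among the slowest, and IDH1, the cytosolic NADP-dependent enzyme, 3.38 h. IDH1 was slower than the median against its own total (0.04, adjusted p = 0.00835), and not called with the spike-in axis as a factor (adjusted p = 0.0695). Across the 12 chase libraries the genes nearest to the mean course of the 9, by root mean square difference of labelled and total log2 CPM (24 values), were VDAC3 (0.0617), SRSF9 (0.0680), GABARAPL2 (0.0707), VDAC2 (0.0707) and RTRAF (0.0745), with a median of 0.413 over 5707 genes. Of the 9 themselves, CS (0.0975) and SUCLG1 (0.0985) lay nearest to that mean, and IDH3A (0.328) and OGDH (0.505) farthest.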

How the data were processed

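The authors deposited raw counts per gene for total, labelled and spike-in RNA. Per the labels' protocols, libraries were 3′-end libraries of alkylated RNA. Per the submitters' processing notes, bcl2fastq 2.17.1.14, Trim Galore 0.6.5 and bedtools were used, with builds hg38 and dm6; the aligner, counter, annotation, strand and T-to-C threshold were not given in the sources used here. Total counts per library were 9004529 to 17425584, and a count of 0 allows a share of up to 1.72e-05% to 3.33e-05% of a library.

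The 9 genes and the gene lists were chosen with earlier results of these data known. Gene identifiers were matched to symbols in GENCODE. Slopes of labelled counts were tested with edgeR 4.0.16 (R 4.3.3), quasi-likelihood, against the median slope, with the TMM size of the total library as offset, for genes with a mean of 5 CPM and 100 labelled counts. Half-lives are quasi-Poisson exponential fits (Python 3.11.15, scipy 1.17.1). Total counts were tested in all 13 libraries as 7 groups. P-values were adjusted over all genes tested (Benjamini-Hochberg, threshold 0.05). Tests were checked on simulated counts. From each list the text names the tested genes with the shortest and longest half-lives; SDHAF2 was added after its value was seen. Also named are the 5 genes nearest to the 9 among those with 1000 labelled counts, and pseudogenes. DESeq2 1.42.0, spike-in totals, each gene's own total, other filters and time ranges, left-out libraries and a replicate block were alternatives. Replicates of a time differed by more than counting noise (chi-square per degree of freedom 3.14 to 6.16).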

Additional observations from a re-analysis of the deposited data

How the results depend on the processing

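Leaving out a library kept 8 of the 9 genes slower and 0 faster, 3 higher and 3 lower at 12 h against 0 h, and the median half-life between 8.30 and 9.03 h; over the same fits 4 to 6 genes were lower at 0 h against no 4sU, 17 to 20 pairs differed, 0 to 1 gene had a higher quadratic term, and 3 to 5 genes had a lower share at 4 h (2 higher throughout). The cause of each change below was not tested. Over 0 to 4 h only, 5 genes were slower (without IDH3A, SDHB and FH, at adjusted p of 0.145, 0.537 and 0.707). Of all 9544 genes tested there, 1676 (17.6%) were slower and 1924 (20.2%) faster. Over 0 to 4 h only, over 2 to 12 h only, with own totals and with spike-in totals the median half-life was 16.6, 7.44, 8.39 and 11.9 h. With own totals 1 gene was faster and 1 had a lower quadratic term, and 32 pairs differed by labelled share. Without a filter 5725 genes were faster, and with the spike-in axis as a factor 2093 were, while 2911 were higher and 3118 lower at 12 h. With spike-in totals 6 of the 9 were higher and 0 lower at 12 h, with 2226 of all 16255 genes lower. At 0 h against no 4sU, 4 were then higher and 3 lower, with 2987 of all genes lower. The median log2 fold change of all genes was 0.36 and 0.54 in these fits. The share of all genes called higher in them is not given here, so the counts of higher genes have no background to be read against.

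Signs turned as follows. The slope of OGDH against the median was −0.0605 with own totals, −0.0182 without a filter, −0.00064 with 500 labelled counts and −0.0250 with the spike-in axis, and −0.00328 to 0.0279 over left-out libraries. With own totals, slopes of SDHD, IDH1 and SDHAF3 were 0.168, 0.0404 and 0.131; SDHD was at 0.0377 with the spike-in axis. Quadratic terms, called for SDHC only, were −0.00224 (SUCLG1), −0.00534 (SDHA), −0.00150 (SDHB), −0.00952 (SDHC), −0.00147 (FH) and −0.00266 (MDH2) with own totals, and −0.00137 (CS), −0.00289 (SUCLG1) and −0.00108 (MDH2) over 2 to 12 h. SUCLG1 was at −0.119 at 12 h and 0.161 at 0 h against no 4sU with the spike-in axis, and at −0.0677 to 0.0102 in the second over left-out libraries. With spike-in totals FH and MDH2 were at 0.299 and 0.0824 at 12 h, and CS, SUCLG1, SDHB, SDHC and FH at 0.302, 0.458, 0.292, 0.256 and 0.0952 at 0 h against no 4sU.

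Replicate numbers were not taken as pairs, since deviations of same-numbered libraries correlated above 0.1 in 8 of 15 pairs of times and not in all (−0.174 to 0.571; 0.232 to 0.381 among 0, 1 and 2 h), so that a partial pairing is possible. With the replicate block 8 genes were slower, 18 pairs differed, SDHC against MDH2 added (permutation test, adjusted p = 0.0293), and 8 genes changed over the chase, SUCLG1 added (adjusted p = 0.0356). No paired analysis was possible for 0 h against no 4sU because that group has 1 library.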
